A study of Mus musculus with 18 samples.

Results

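The bromodomain inhibitor JQ1 was added to wild-type (WT) mouse cortical neurons in culture, and the transcript levels of all genes were compared with those of WT neurons given the vehicle, DMSO. The comparison rested on 6 libraries, 3 of WT neurons in DMSO and 3 of WT neurons in JQ1, of the 18 libraries that the labels describe, and every gene of the count table other than the ERCC spike-in sequences was a member, 37310 in all. Neurons had been 7 days in culture in Neurobasal medium with B27 and were treated for 24 h. The other libraries used were 3 in DMSO and 3 in JQ1 from cortical neurons in which Fmr1 was knocked out (KO); its product FMRP binds RNA and restrains translation. They shared the estimate of the spread between libraries and were compared with WT at the end. The sources used here do not give the dose of JQ1, the age and strain of the animals or the number of animals behind a library, and 6 libraries treated with THZ1 were not analysed here.

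BET proteins, among them Brd2, Brd3 and the germline protein Brdt, hold a pair of bromodomains that bind acetylated lysines, chiefly on histone tails. Through them the proteins sit at acetylated promoters and enhancers and help bring the elongation kinase P-TEFb to paused RNA polymerase II. JQ1 occupies the acetyl-lysine pocket and displaces BET proteins from chromatin. In neurons, BET proteins have been studied for their part in the transcription of activity-regulated and synaptic genes.

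Read counts over genes came to 33118140, 36859618 and 35006469 in the DMSO libraries and to 53237428, 134110850 and 21643592 in the JQ1 libraries, so depth was more uneven among the JQ1 libraries. Levels are given in CPM, counts scaled to a common library total, after trimmed-mean (TMM) scaling of library sizes, and changes as log2 of JQ1 over DMSO. A gene was called changed at an adjusted p under 0.05 in edgeR's quasi-likelihood test over all 15433 genes with enough counts, and "rose" and "fell" are used of called genes alone. Nothing in the labels says that the 3 libraries of a group came from separate cultures or animals, so p-values measure the spread between these libraries, which may be technical. JQ1 replicate 3 was the shallowest of the 6; without it, 3846 genes rose and 4462 fell. The spike-in sequences took 0.118% to 0.173% of all counts in DMSO and 0.173% to 0.261% in JQ1. In the KO libraries the share was not higher in JQ1. It ran from 0.1685% to 0.3484% in KO DMSO and from 0.1928% to 0.2426% in KO JQ1. Scaling to the spike-in sequences of the libraries in place of TMM moved the median log2 change of all genes by -0.64, by slightly differing amounts for single genes. A rise of less than about that size on the TMM scale is thus a rise relative to the other genes. In general it has a negative value on the spike-in scale. The sources used here do not say how much spike-in RNA was added, or in proportion to what.

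Of the 15433 genes tested, 8507 (55.1%) were called in JQ1, of which 3990 (25.9% of all tested) rose and 4517 (29.3%) fell. The called falls were the deeper ones: their median log2 change was -0.68, against 0.31 for the called rises and -0.0043 for all genes tested. Called falls of more than 2-fold numbered 1599 (10.4%), and called rises of more than 2-fold numbered 147 (0.953%). The 3 JQ1 libraries lay wholly above or wholly below the 3 DMSO libraries for 9656 genes (62.6%). Such a lack of overlap was a condition for naming the steepest rises and falls below, so it is no further support for them. On the spike-in scale 36 genes rose and 5486 fell, so the share of rises among called genes went from 46.9% to 0.652%.

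The size and direction of the changes differed with how strongly a gene was expressed. Genes were split into 10 groups of equal size by their mean level over the 6 WT libraries. The lowest group, with means up to 0.414 CPM, held 567 of the 1599 called falls of more than 2-fold, but a gene this weak could enter the test through the libraries in which it was high and then had to differ, so its shares are not read here. In the next group, between 0.414 and 1.41 CPM, 31.9% fell by more than 2-fold and 6.87% rose. In the highest group, 0.0648% fell by more than 2-fold, 10.6% fell and 44.8% rose. The median log2 change was -0.50 in the former and 0.12 in the latter. A gene of few counts passes the test only with a large change, so shares of calls are not measured with the same power across the groups. Counts over the gene lists below are to be read against the shares of all tested genes that rose (25.9%) and fell (29.3%), and lists of weak genes can hold some that entered the test through 1 treatment alone.

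**Figure D1:**
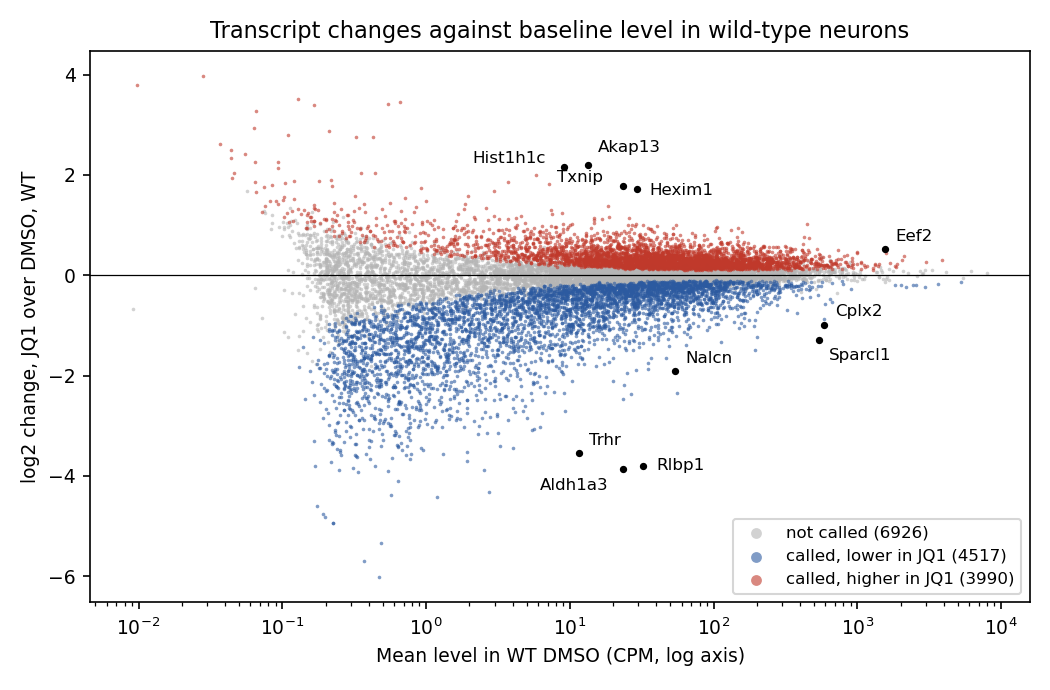
Change in JQ1 (vertical axis, log2 of JQ1 over DMSO) against mean level in WT DMSO (horizontal axis, CPM, log axis), with 1 point for each of the 15433 genes tested. Red points are the 3990 called rises and blue points the 4517 called falls. Deep falls lie mostly at low and middle levels, while few genes rose above a log2 change of 1, and 11 genes described in the text are marked.

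Relative to other genes, transcripts of the BET genes Brd2 and Brd3 and of much of the elongation machinery rose, a direction that flips for most of them on the spike-in scale. Brd2 stood at 433.7, 419.9 and 406.8 CPM in the DMSO libraries and 657.6, 651.0 and 639.1 CPM in the JQ1 libraries (log2 change 0.63, SE 0.0419, adjusted p = 4.28e-08). The DMSO and JQ1 libraries did not overlap. Brd3 rose by less (log2 change 0.16, SE 0.0425, adjusted p = 0.0061), a call lost when counts were thinned to the shallowest library (adjusted p = 0.0682), and Brdt, the germline member, fell (log2 change -0.25, SE 0.0822, adjusted p = 0.0179). The call of Brdt was lost on leaving out DMSO replicate 1 or 3 (adjusted p = 0.066 and 0.0794) or JQ1 replicate 1 or 2 (0.0873 and 0.0833), and on thinning (0.0778). On the spike-in scale the direction of Brd2 and Brd3 flips.

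Hexim1, which holds P-TEFb inactive in the 7SK ribonucleoprotein, was at 28.8, 29.2 and 29.9 CPM in the DMSO libraries and 94.7, 92.7 and 102.5 CPM in the JQ1 libraries. The JQ1 libraries were all more than 3 times as high as the DMSO libraries (log2 change 1.72, SE 0.0501, adjusted p = 7.03e-11). Its paralog Hexim2 went the other way and was at 8.26, 7.84 and 8.36 CPM in the DMSO libraries and 3.10, 3.04 and 3.55 CPM in the JQ1 libraries (log2 change -1.37, SE 0.1075, adjusted p = 1.93e-07). Of 34 tested genes for P-TEFb, its 7SK inhibitor complex and elongation factors, 20 rose and 6 fell, with a median log2 change of 0.24 that turns to -0.41 on the spike-in scale. The rises included the PAF complex subunits Ctr9 (0.65), Rtf1 (0.49) and Paf1 (0.49) (log2 changes in brackets here and below), the 7SK capping enzyme Mepce (0.60) and the kinase Cdk13 (0.46). Besides Hexim2, the strongest evidence for a fall was for the NELF subunit Whsc2 (-0.28) and the PAF subunit Leo1 (-0.27). The P-TEFb kinase itself, Cdk9, was called as well (log2 change 0.37, SE 0.0447, adjusted p = 9.44e-06).

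Histone genes had the 2 steepest rises among genes of at least 3 CPM. The replication-dependent histone genes lie in clusters on several chromosomes and are normally transcribed in S phase, and their messages end in a stem-loop in place of a poly(A) tail. Counts per gene do not tell messages with a stem-loop end from any with a poly(A) tail. Of 67 such genes listed, 27 had enough counts to test and 25 of them rose, 22 by more than 2-fold. None fell, and 2 were not called. The median log2 change was 2.05, and 1.42 on the spike-in scale. Filtering kept a low-count gene if its counts sufficed in any 1 group, so weak genes that are high in JQ1 had the better chance of being tested. Summed over the 27 tested genes, the level ran from 100.7 to 105.2 CPM in the DMSO libraries and from 234.2 to 248.1 CPM in the JQ1 libraries. This sum leaves out the 40 untested genes, so it does not show how far the filter shaped the result. Of the listed genes, 8 had no count in any of the 6 libraries.

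Promoters of 4 of these genes are shown here because the genes moved together. Each run is the 120 bases before the RefSeq start in the mouse build GRCm38.p6, read 5′ to 3′ on the gene's strand, with the letters CCAAT, or ATTGG for the same motif on the opposite strand, in capitals.
Hist1h4i: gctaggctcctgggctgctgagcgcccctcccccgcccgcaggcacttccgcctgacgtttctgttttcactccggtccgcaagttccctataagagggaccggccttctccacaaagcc
Hist2h2bb: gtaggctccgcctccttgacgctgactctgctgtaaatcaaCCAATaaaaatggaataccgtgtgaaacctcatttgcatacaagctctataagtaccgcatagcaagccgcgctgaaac
Hist1h1c: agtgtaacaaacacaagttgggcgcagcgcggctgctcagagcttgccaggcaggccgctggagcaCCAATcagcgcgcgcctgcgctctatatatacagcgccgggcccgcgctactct
Hist3h2a: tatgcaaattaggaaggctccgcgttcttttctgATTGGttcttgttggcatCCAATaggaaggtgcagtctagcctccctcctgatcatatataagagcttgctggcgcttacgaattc
The motif, searched as CCAAT on both strands in the 250 bases before the start, was in 18 of the 23 tested histone genes with a RefSeq promoter (78.3%) and in 9314 of 27025 RefSeq promoters (34.5%). In the shown stretch Hist3h2a holds it on both strands and Hist1h4i on neither, and both genes rose. A match describes these letters and not a bound site.

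Hist1h1c, a linker histone gene, was at 9.38, 9.19 and 8.91 CPM in the DMSO libraries and 42.1, 40.8 and 39.9 CPM in the JQ1 libraries (log2 change 2.16, SE 0.0824, adjusted p = 4.76e-10). Hist1h4i, one of many genes for histone H4, was at 0.615, 0.711 and 0.660 CPM in the DMSO libraries and 6.63, 7.005 and 8.54 CPM in the JQ1 libraries (log2 change 3.45, SE 0.149, adjusted p = 1.43e-09). The H2B gene Hist2h2bb was at 0.469, 0.658 and 0.495 CPM in the DMSO libraries and 5.83, 6.24 and 5.275 CPM in the JQ1 libraries (log2 change 3.42, SE 0.1365, adjusted p = 6.13e-10). In each of the 3 genes the lowest JQ1 library was more than 4 times the highest DMSO library. Smaller or comparable rises were seen in Hist1h2bc (log2 change 2.004), Hist3h2a (1.39), Hist1h4h (2.76) and Hist1h2al (1.35). Histone genes of 1 class are near-identical in their coding sequence, so reads can be shared between copies and the values of single copies are uncertain. The replacement histone gene H3f3b, which lies outside these clusters, also rose and was at 428.1, 435.6 and 469.4 CPM in the DMSO libraries and 872.9, 881.1 and 947.1 CPM in the JQ1 libraries (log2 change 1.02, SE 0.06165, adjusted p = 1.89e-08).

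Other genes of the cell cycle gave smaller changes in both directions. Of 48 tested cell cycle and mitosis genes, 9 rose and 5 fell, with a median log2 change of 0.01. The largest of the best supported rises were in the D-type cyclin Ccnd3 (0.57), the DNA clamp Pcna (0.48) and thymidylate synthase Tyms (0.49). The cell cycle inhibitors Cdkn1a (-0.96) and Cdkn1c (-1.17) and the cyclin Ccnd1 (-0.62) fell. The directions of the 9 rises, all below a log2 change of 0.64, flip on the spike-in scale.

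Apart from histone genes, the steepest rises among genes of at least 3 CPM belonged to unrelated functions. Akap13, a kinase-anchoring protein, was at 13.3, 12.7 and 14.0 CPM in the DMSO libraries and 62.6, 59.0 and 63.1 CPM in the JQ1 libraries (log2 change 2.21, SE 0.0716, adjusted p = 1.05e-10). Txnip, which binds thioredoxin and restrains glucose uptake, was at 22.2, 23.3 and 25.2 CPM in the DMSO libraries and 81.15, 76.7 and 86.8 CPM in the JQ1 libraries (log2 change 1.79, SE 0.0687, adjusted p = 4.76e-10). The domesticated retrotransposon gene Peg10, which is imprinted, was at 20.1, 20.9 and 30.3 CPM in the DMSO libraries and 81.0, 72.4 and 93.2 CPM in the JQ1 libraries (log2 change 1.78, SE 0.127, adjusted p = 7.82e-08). A gap between the groups was a condition for naming these genes. It was more than 2-fold even in Peg10, where DMSO replicate 3 was the highest of its group. Others in this group were Arid5a, which binds RNA (log2 change 1.87), the mitochondrial protein gene Chchd7 (1.82), Fam40b of the STRIPAK phosphatase complex (1.68), the transcription cofactor gene Sertad1 (1.43) and Eme2, a partner of the nuclease Mus81 (1.32).

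Of the steepest falls among genes of at least 3 CPM, that of Aldh1a3 was 14.6-fold. Aldh1a3, which makes retinoic acid, was at 23.0, 25.8 and 21.5 CPM in the DMSO libraries and 1.635, 1.69 and 1.26 CPM in the JQ1 libraries (log2 change -3.87, SE 0.226, adjusted p = 1.41e-08). Rlbp1, a carrier of retinaldehyde found in Müller glia of the retina and in astrocytes, was at 30.7, 32.9 and 34.0 CPM in the DMSO libraries and 2.15, 2.71 and 1.49 CPM in the JQ1 libraries (log2 change -3.81, SE 0.1795, adjusted p = 2.78e-09). Trhr, the receptor for thyrotropin-releasing hormone, was at 10.7, 12.8 and 11.2 CPM in the DMSO libraries and 0.865, 1.06 and 0.980 CPM in the JQ1 libraries (log2 change -3.54, SE 0.246, adjusted p = 6.15e-08). In all 3 genes the highest JQ1 library was far below the lowest DMSO library, though some gap was a condition for naming them. Some of these genes are expressed in a minority of cell types, and in bulk RNA fewer cells of a type and less RNA per cell cannot be told apart.

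Further steep falls came from genes of low level, all with a mean under 10 CPM in DMSO. They included the small heat shock protein gene Cryab (-3.15), the mitochondrial glutamate carrier gene Slc25a18 (-3.03) and the zinc transporter gene Slc39a12 (-2.71). The synaptotagmin family gene Syt17 (-2.73), the ferlin family gene Otof (-2.85) and the S100 family gene S100a16 (-2.70) fell as well. The set also held Scel (-3.44), Krt77 (-3.06) and Emp1 (-2.77), genes best known from epithelia, the matrix proteoglycan gene Podn (-2.76) and Sidt1 (-3.09), which codes for a membrane protein of the SID1 family.

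**Figure D2:**
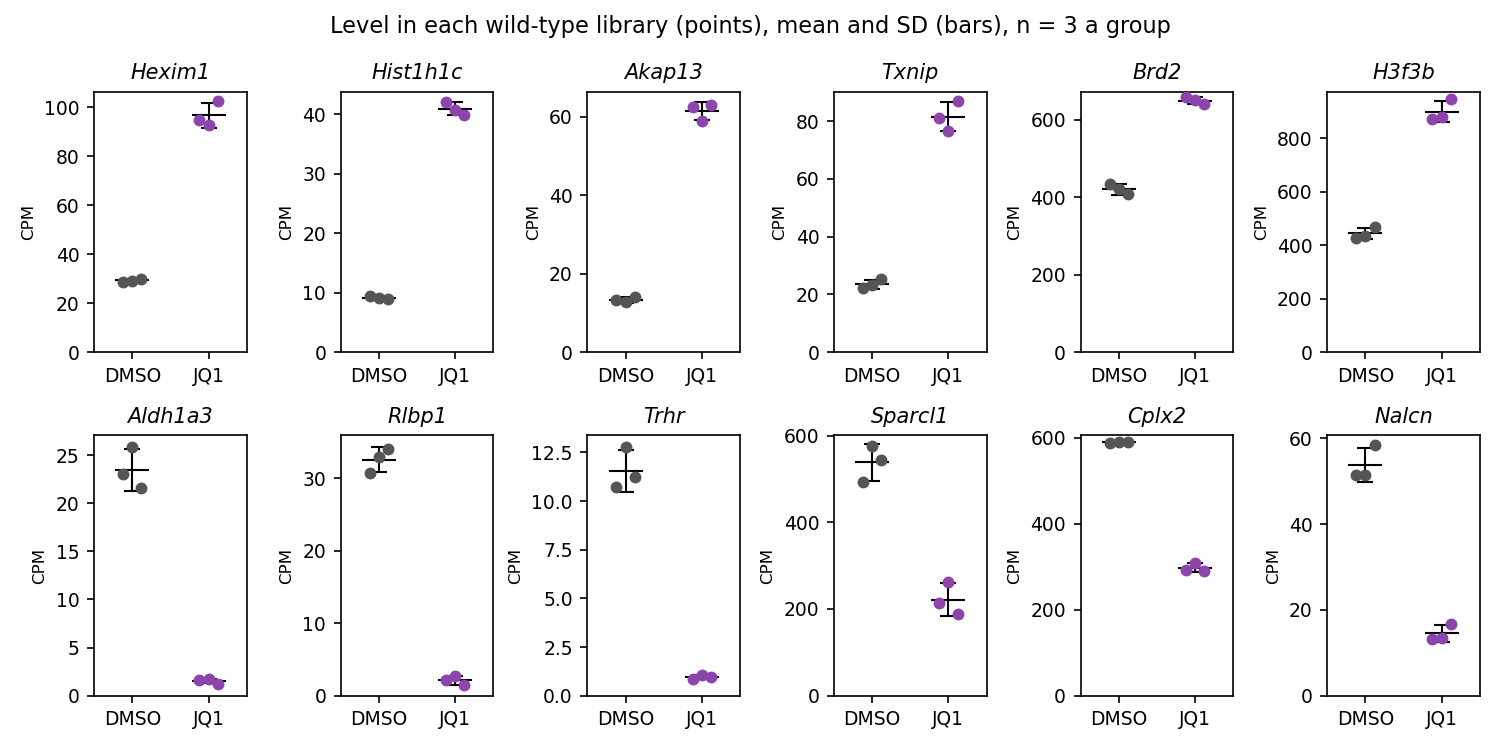
Level in each WT library (points, CPM, vertical axes starting at 0) of 12 genes in DMSO and JQ1, with the mean and SD of 3 libraries a group as bars. Hexim1, Hist1h1c, Akap13, Txnip, Brd2 and H3f3b are higher in JQ1 (Brd2 flips on the spike-in scale), and Aldh1a3, Rlbp1, Trhr, Sparcl1, Cplx2 and Nalcn are lower. The groups do not overlap in any panel, as in 62.6% of all tested genes. For Hexim1, Hist1h1c, Akap13, Txnip, Aldh1a3, Rlbp1 and Trhr this was a condition of naming the gene.

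The shares of rising and falling genes also ran in opposite directions across promoters poor and rich in CG. The runs below are the 120 bases before the RefSeq start (GRCm38.p6, 5′ to 3′ on the gene's strand) of 3 rising and 4 falling genes named above, with every CG in capitals.
Arid5a: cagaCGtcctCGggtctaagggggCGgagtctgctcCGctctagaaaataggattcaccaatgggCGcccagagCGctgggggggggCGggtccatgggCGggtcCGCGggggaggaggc
Txnip: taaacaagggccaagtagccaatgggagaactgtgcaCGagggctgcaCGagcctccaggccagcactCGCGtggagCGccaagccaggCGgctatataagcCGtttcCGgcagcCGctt
Akap13: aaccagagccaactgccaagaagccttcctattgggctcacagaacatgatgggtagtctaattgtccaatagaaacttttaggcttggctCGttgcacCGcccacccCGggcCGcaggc
Rlbp1: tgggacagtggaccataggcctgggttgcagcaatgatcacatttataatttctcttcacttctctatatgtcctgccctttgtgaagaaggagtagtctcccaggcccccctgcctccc
Scel: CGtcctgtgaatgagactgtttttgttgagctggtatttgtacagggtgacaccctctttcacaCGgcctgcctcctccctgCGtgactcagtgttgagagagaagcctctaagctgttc
Sidt1: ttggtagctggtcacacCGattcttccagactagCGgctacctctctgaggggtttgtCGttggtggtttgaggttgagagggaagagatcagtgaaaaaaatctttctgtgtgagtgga
Podn: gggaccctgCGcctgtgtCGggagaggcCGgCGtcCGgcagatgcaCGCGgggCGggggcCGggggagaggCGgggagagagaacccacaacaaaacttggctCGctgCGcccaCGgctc
Over the 250 bases before the start, Arid5a, Txnip and Akap13 held 13, 22 and 10 CG, and Rlbp1, Scel and Sidt1 held 6, 6 and 7. Podn held 32 and fell, so by this count the pattern has an exception even in this small set. The 8419 protein-coding genes that averaged 5 CPM or more in WT and had a RefSeq promoter (80.5% of such genes) were split into 5 groups of equal size by the CpG ratio, which is the number of CG found over that expected from the C and G content. By this ratio Arid5a (0.627) and Txnip (0.795) stood above Rlbp1 (0.304), Scel (0.424) and Sidt1 (0.486). Akap13 (0.469), which rose, lay below Sidt1 and within the lowest group, which reached 0.548, and Podn (0.853), which fell, lay above that limit. Scel, Sidt1 and Podn averaged under 5 CPM in WT, so they are not among the 8419 genes and only their ratios are compared. In the group with the lowest ratio 37.2% of genes fell, 5.35% by more than 2-fold, and 21.9% rose. In the group with the highest ratio 14.3% fell, 0.534% by more than 2-fold, and 44.1% rose. Median level also climbed across these groups, from 30.6 to 52.3 CPM, and its part in the difference was not tested.

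**Figure D3:**
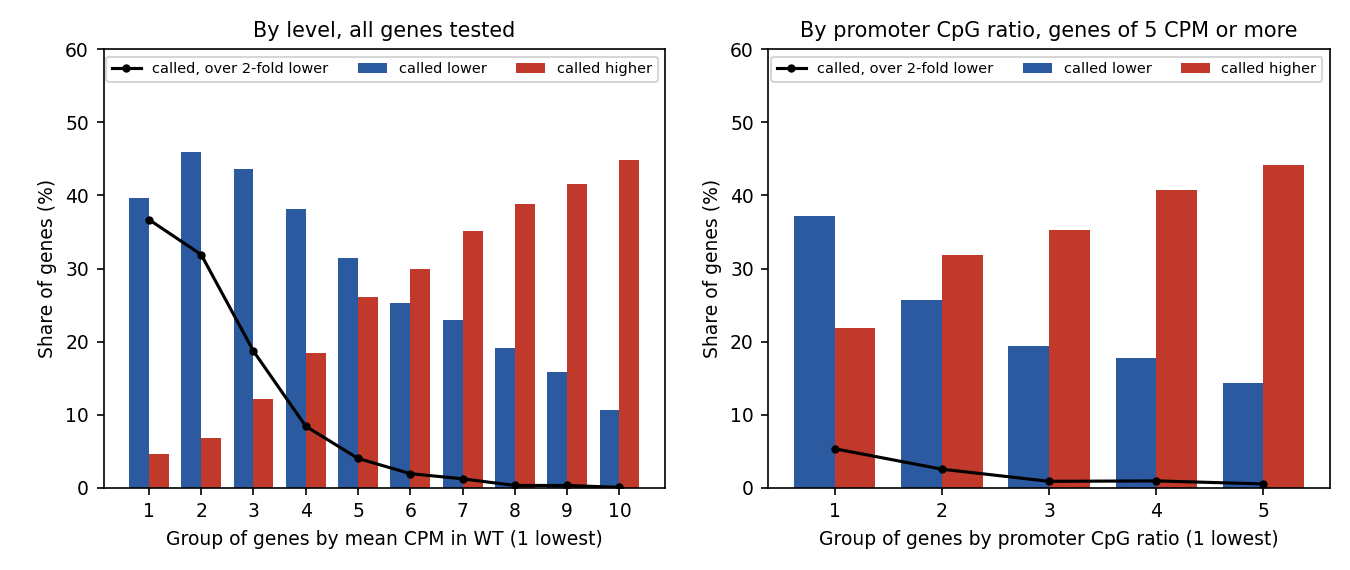
Share of genes (vertical axes, %) that fell (blue bars), rose (red bars) or fell by more than 2-fold (black points and line) in 10 groups of the 15433 tested genes by mean level over the 6 WT libraries (left) and in 5 groups of 8419 genes by promoter CpG ratio (right). Falls were the more frequent call in the 5 lowest level groups, of which the first can hold genes that entered the test only where they were high, and in the lowest CpG group, and rises in the others.

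Retinoid genes fell well beyond the 2 leading ones. Retinoic acid is made from vitamin A in steps catalysed by alcohol and aldehyde dehydrogenases, cleared by Cyp26 enzymes and sensed by nuclear receptors. Of 21 tested genes for its synthesis, transport and response, 16 fell, 11 of them by more than 2-fold, and 1 rose; the median log2 change was -1.09. The falls included the clearing enzyme Cyp26b1 (-1.09), the receptor Rxrg (-1.26) and the reductase Rdh11 (-0.35). The dehydrogenase gene Rdh10 (0.26) was the 1 gene that rose, a direction that flips on the spike-in scale and a call lost on thinning (adjusted p = 0.175). With a minimum count of 50, which leaves out weak members, 10 genes fell, and on thinning 9 fell at a median log2 change of -0.65.

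Most receptor genes for neuromodulators and neuropeptides fell. Of 51 tested, 40 fell, 20 of them by more than 2-fold, and 1 rose; the median log2 change was -0.93. Falls included the nociceptin receptor Oprl1 (-0.86), the substance P receptor Tacr1 (-2.40), the somatostatin receptor Sstr3 (-3.52), the serotonin receptors Htr3a (-2.31) and Htr7 (-1.34) and the already described Trhr. Tacr1 was at 4.48, 3.87 and 4.40 CPM in the DMSO libraries and 0.7115, 0.800 and 0.980 CPM in the JQ1 libraries (log2 change -2.40, SE 0.153, adjusted p = 2.9e-08). Oprl1 was at 69.2, 64.75 and 64.0 CPM in the DMSO libraries and 36.6, 35.3 and 37.1 CPM in the JQ1 libraries (log2 change -0.86, SE 0.0517, adjusted p = 1.76e-08). Both genes had a gap between the groups, wide in Tacr1 and narrower in Oprl1. The muscarinic receptor Chrm4 (0.44) rose, with a direction that flips on the spike-in scale.

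The peptides themselves were lowered as well. Of 21 tested neuropeptide genes 14 fell, 10 by more than 2-fold, and none rose (25.9% of all genes did), with a median log2 change of -0.84. Cholecystokinin, Cck, was at 40.2, 41.9 and 40.5 CPM in the DMSO libraries and 18.6, 15.6 and 16.3 CPM in the JQ1 libraries (log2 change -1.28, SE 0.109, adjusted p = 3.62e-07). Neurotensin, Nts (-1.38), and gastrin-releasing peptide, Grp (-1.77), fell too. With a minimum count of 50, 8 neuropeptide genes were called lower, and on thinning 5 were.

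Neuronal identity genes gave no such one-sided picture. The neuronal tubulin gene Tubb3, a marker of the labelled cell type, was at 2542, 2466 and 2339 CPM in the DMSO libraries and 2243, 2096 and 2093 CPM in the JQ1 libraries. Of 24 tested pan-neuronal genes 8 rose and 7 fell, of 29 genes of excitatory projection neurons 5 rose and 8 fell, and of 29 genes of inhibitory neurons 4 rose and 5 fell. The median log2 changes were 0.019, 0.021 and 0.026, near that of all genes. Without JQ1 replicate 3, 8 of the excitatory genes rose and 10 of the inhibitory genes fell. Within the pan-neuronal list the neurofilament genes Nefl (0.85) and Ina (0.51) rose, while the RNA-binding protein genes Rbfox1 (-0.56), Elavl4 (-0.58) and Rbfox3 (-0.25) fell. On the spike-in scale Nefl alone of these 2 risers kept its direction. Among excitatory genes the vesicular glutamate transporters Slc17a6 (-0.42) and Slc17a7 (-0.76) and the thyroid hormone-binding protein Crym (-1.68) fell, and the transcription factor Neurod1 (0.63) rose, with a direction that flips on the spike-in scale. Among inhibitory genes Calb2 (-1.86) and Htr3a, which mark overlapping interneuron types, fell. Gad2, which makes GABA, was called higher (log2 change 0.36, SE 0.102, adjusted p = 0.00824), again with a direction that flips on the spike-in scale.

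Ion channel genes were lowered in part. Of 30 tested sodium and calcium channel genes 14 fell and 4 rose (median log2 change -0.15), and of 62 potassium channel genes 27 fell and 3 rose (-0.28). Without DMSO replicate 1, 2 of the sodium and calcium channel genes rose. Nalcn, the sodium leak channel that helps set the resting potential, was at 51.4, 51.6 and 58.4 CPM in the DMSO libraries and 13.3, 13.5 and 16.8 CPM in the JQ1 libraries (log2 change -1.92, SE 0.0817, adjusted p = 1.28e-09). The libraries of the groups were far apart. Falls among calcium channel genes included the auxiliary subunits Cacng3 (-1.01), Cacnb2 (-0.70) and Cacng8 (-0.54) and the T-type channel Cacna1i (-0.68). Among potassium channels the silent subunits Kcns1 (-0.94) and Kcnf1 (-0.70), the inward rectifiers Kcnj16 (-2.23) and Kcnj11 (-0.80) and the tandem-pore channel Kcnk2 (-0.56) fell. The pacemaker channel Hcn2 (0.26) rose, with a direction that flips on the spike-in scale.

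Transmitter receptor genes split by subunit. Of 17 tested ionotropic glutamate receptor genes 7 fell and 2 rose, of 19 GABA and glycine receptor genes 8 fell and 3 rose, and of 27 genes of metabotropic glutamate receptors and their scaffolds 10 fell and 4 rose. Without JQ1 replicate 1, 6 of the metabotropic receptor and scaffold genes fell. The NMDA receptor subunits Grin3a (-1.23), Grin2d (-0.73) and Grin2c (-3.20) fell, while the obligatory subunit Grin1 was called higher (log2 change 0.36, SE 0.0619, adjusted p = 0.000215). Gria3 of the AMPA receptors was at 72.7, 79.8 and 83.0 CPM in the DMSO libraries and 44.2, 48.0 and 45.4 CPM in the JQ1 libraries (log2 change -0.77, SE 0.0911, adjusted p = 7.58e-06). Gria1 also fell, with a log2 change of -0.33. Among GABA-A subunits Gabra5 (-0.66), Gabrg3 (-0.79), Gabrg1 (-0.72), Gabrd (-0.50) and Gabra3 (-0.47) fell, the call of Gabrd being lost on thinning (adjusted p = 0.122). The GABA-B subunit Gabbr1 (0.44) and the glycine receptor subunit Glrb (0.37) were called higher. The directions of Grin1, Gabbr1 and Glrb flip on the spike-in scale. The postsynaptic scaffold Shank2 (-0.61) and the metabotropic receptors Grm8 (-0.55) and Grm3 (-0.52) fell, with the call of Grm8 lost on thinning (adjusted p = 0.176).

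At the presynapse 17 of 46 tested vesicle and release genes fell and 10 rose, with a median log2 change of -0.029. Cplx2, a complexin that clamps and promotes vesicle fusion, was at 588.1, 590.2 and 590.0 CPM in the DMSO libraries and 293.4, 309.6 and 291.4 CPM in the JQ1 libraries. The libraries of a group lay close together and the groups far apart (log2 change -0.98, SE 0.0801, adjusted p = 2.62e-07). Other falls were in Rims3 (-0.73) of the active zone, the calcium sensors Syt3 (-1.03), Syt6 (-1.62) and Doc2a (-1.32) and the Rab effector Rph3a (-0.88). The fusion ATPase Nsf (0.57), the priming factor Unc13b (0.53) and synapsin Syn1 (0.36) were called higher, with directions that flip on the spike-in scale. Synaptic adhesion genes were balanced, with 11 of 45 called higher and 12 lower; Lrrtm2 (-0.57) and Cntnap4 (-0.46) fell, and Cadm2 (0.62) was called higher with a direction that flips on the spike-in scale. Of 62 axon guidance genes 18 fell (29.0%, against 29.3% of all genes) and 9 rose (14.5%, against 25.9%), among the falls the semaphorins Sema3d (-1.75), Sema4a (-0.81) and Sema3c (-0.88) and among the rises the ephrin receptor Ephb3 (0.77).

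Activity-regulated genes changed in both directions, with rises less frequent among effectors than among all genes, of which 25.9% rose and 29.3% fell. Of 24 tested immediate early factors 7 rose (29.2%) and 5 fell (20.8%), and of 27 activity-regulated effectors 3 rose (11.1%) and 9 fell (33.3%). Egr1 was at 9.20, 8.69 and 11.3 CPM in the DMSO libraries and 19.35, 19.35 and 17.9 CPM in the JQ1 libraries (log2 change 0.96, SE 0.138, adjusted p = 4.52e-05). Ier2 was at 7.59, 7.03 and 7.59 CPM in the DMSO libraries and 19.5, 16.7 and 18.5 CPM in the JQ1 libraries (log2 change 1.29, SE 0.0925, adjusted p = 7.82e-08). Jun also rose (log2 change 0.67), while Nr4a1 (-0.85), Nr4a3 (-0.34) and Fosl2 (-0.76) fell. Arc, an effector at dendritic spines, was at 1.93, 1.71 and 2.035 CPM in the DMSO libraries and 0.731, 0.761 and 0.887 CPM in the JQ1 libraries (log2 change -1.29, SE 0.152, adjusted p = 7.53e-06). Other falling effectors were the G protein regulator Rgs4 (-0.83) and the phosphatases Dusp4 (-0.61) and Dusp5 (-0.93). Gadd45b rose (log2 change 0.90). On thinning the calls of Dusp5 and Gadd45b were lost (adjusted p = 0.185 and 0.0592).

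**Figure D4:**
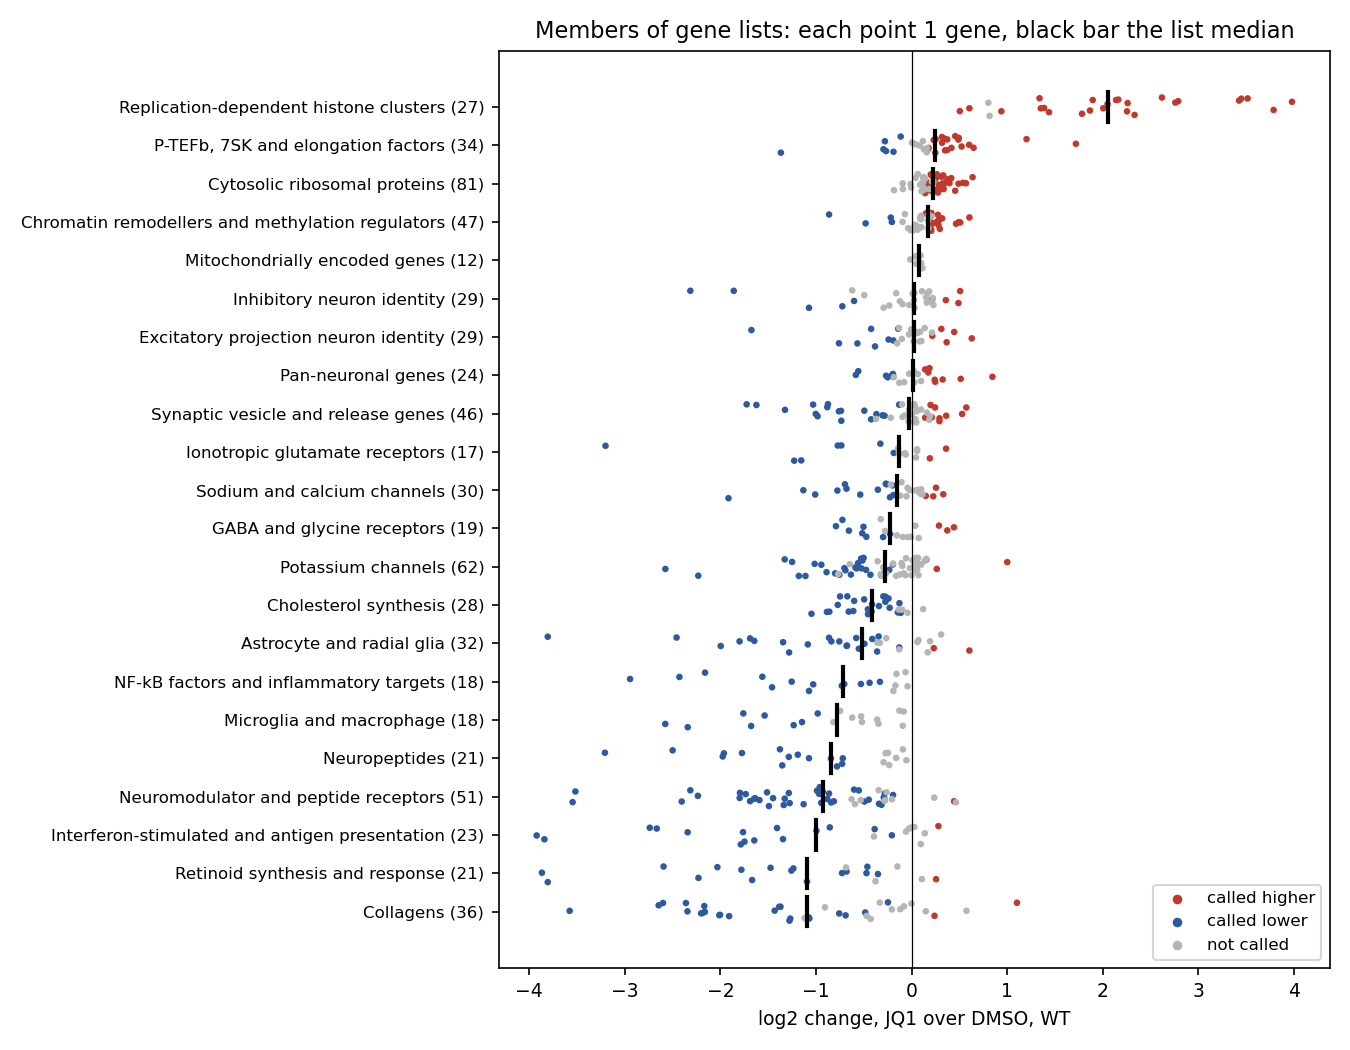
Log2 change in JQ1 (horizontal axis) of every tested member of 22 gene lists (rows, number tested in brackets), with red points for called rises, blue for called falls and grey for genes not called, and a black bar at the list's median. Histone cluster genes lie to the right at a median of 2.05, and collagen, retinoid, interferon and neuromodulator receptor genes to the left; on the spike-in scale all medians shift left and only that of the histone cluster genes stays above 0.

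Summed levels of astrocyte, microglial and vascular markers were lower in every JQ1 library than in any DMSO library, by amounts that differed from gene to gene. Of 32 tested genes of astrocytes and radial glia 21 fell, 9 by more than 2-fold, and 2 rose (median log2 change -0.52), or 1 without DMSO replicate 1 or 2 or JQ1 replicate 3. Their summed level ran from 3288 to 3823 CPM in the DMSO libraries and from 2435 to 2988 CPM in the JQ1 libraries. Sparcl1, a secreted synapse-promoting protein, was at 493.3, 576.9 and 544.7 CPM in the DMSO libraries and 213.0, 262.3 and 187.9 CPM in the JQ1 libraries (log2 change -1.28, SE 0.185, adjusted p = 4.68e-05). The water channel Aqp4 (-2.46), the membrane protein Mlc1 (-1.65), the transcription regulator Id3 (-1.80) and S100b (-1.996) fell steeply. Other astrocyte genes were not called, among them the glutamate transporter genes Slc1a2 (log2 change -0.26, SE 0.131, adjusted p = 0.0999) and Slc1a3 (log2 change -0.33, SE 0.193, adjusted p = 0.16) and Apoe (log2 change 0.072, SE 0.134, adjusted p = 0.672). Without JQ1 replicate 2, Slc1a2 was called lower, at a log2 change of -0.42 and adjusted p = 0.0145. With a replicate block over 12 libraries both Slc1a2 and Slc1a3 were called lower (adjusted p = 0.0151 and 0.00589). The intermediate filament gene Nes (0.60) was called higher with a direction that flips on the spike-in scale.

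Of 16 tested oligodendrocyte lineage genes 8 fell and 2 rose, but 3 fell without DMSO replicate 3, 5 fell without JQ1 replicate 1 and 1 rose without DMSO replicate 2. Their summed level overlapped between the groups, at 170.8 to 239.2 CPM in DMSO and 205.0 to 214.0 CPM in JQ1. Mbp, a myelin protein, was at 14.0, 14.6 and 17.4 CPM in the DMSO libraries and 3.94, 4.55 and 4.62 CPM in the JQ1 libraries (log2 change -1.81, SE 0.124, adjusted p = 5.58e-08), with no overlap between the groups. Of 18 tested genes of microglia and macrophages 8 fell, 7 by more than 2-fold, and none rose; with a minimum count of 50, 2 fell. The falls included the fractalkine receptor Cx3cr1 (-1.76), the growth factor receptor Csf1r (-1.54) and Fcrls (-2.58). Their summed level was low in both groups, 33.3 to 37.3 CPM in DMSO and 23.2 to 28.9 CPM in JQ1, and Siglech had no count. Of 18 endothelial, mural and fibroblast genes 10 fell, 8 by more than 2-fold, and none rose, from a summed 112.1 to 146.3 CPM in DMSO to between 60.7 and 70.8 CPM in JQ1. Which part of the changes in retinoid, inflammatory and matrix genes follows these markers was not tested.

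Inflammatory genes and many weakly expressed interferon genes fell. Of 18 tested genes for NF-kB factors and their inflammatory targets 13 fell, 8 by more than 2-fold, and none rose, with a median log2 change of -0.72. The falls took in the feedback inhibitor Tnfaip3 (-1.56), the subunits Relb (-1.03) and Nfkb1 (-0.53), the cytokine Lif (-2.94), the chemokine Cxcl12 (-0.70) and the adhesion molecule Icam1 (-1.25). On thinning the calls of Relb and Icam1 were lost (adjusted p = 0.108 and 0.0982). Nfkb1 was at 9.17, 8.53 and 8.31 CPM in the DMSO libraries and 6.56, 5.875 and 5.415 CPM in the JQ1 libraries. The JQ1 libraries were all below the DMSO libraries. Of 23 tested interferon-stimulated and antigen presentation genes 15 fell, 11 by more than 2-fold, and 1 rose, with a median log2 change of -0.99. With a minimum count of 50 the median was -0.15 and 6 genes fell, and the summed level of the list overlapped between the groups, at 189.3 to 191.8 CPM in DMSO and 181.6 to 195.7 CPM in JQ1. Ifit2 (-1.41) and Rsad2 (-2.74), both antiviral effectors, and the peptide transporter Tap2 (-1.79) fell. Collagen genes gave a like count, with 23 of 36 called lower, 19 by more than 2-fold, and 2 called higher, at a median log2 change of -1.10. Col6a3 (-2.60), Col22a1 (-2.34), Col12a1 (-2.36) and Col5a2 (-1.07) were among the falls and Col7a1 (1.10) among the rises, a call lost in 4 of the 6 fits that left out 1 WT library, with adjusted p = 0.0736 and 0.161 without DMSO replicate 1 or 3 and 0.228 and 0.0509 without JQ1 replicate 2 or 3, and in the DESeq2 test (0.0815). The list was drawn by symbol and also took in the ceramide transporter gene Col4a3bp, the other rise (0.24), whose direction flips on the spike-in scale.

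Cholesterol synthesis genes fell almost throughout, by modest amounts. Of 28 tested genes of the pathway and its regulators 24 fell, 1 by more than 2-fold, and none rose; the median log2 change was -0.42. Their summed level ran from 8631 to 8782 CPM in DMSO and from 7117 to 7402 CPM in JQ1. Fdps, which makes farnesyl diphosphate, was at 379.2, 388.0 and 370.0 CPM in the DMSO libraries and 216.4, 224.1 and 236.8 CPM in the JQ1 libraries (log2 change -0.75, SE 0.0471, adjusted p = 2.72e-08). Insig1, which retains the SREBP escort protein in the endoplasmic reticulum, was at 212.4, 214.1 and 200.4 CPM in the DMSO libraries and 135.4, 131.3 and 130.5 CPM in the JQ1 libraries (log2 change -0.66, SE 0.0412, adjusted p = 2.58e-08). The enzymes Mvd (-0.86), Nsdhl (-0.89) and Tm7sf2 (-0.77) and the sterol carrier Stard4 (-0.60) fell by similar amounts.

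Genes of protein synthesis rose slightly relative to other genes. Of 81 tested cytosolic ribosomal protein genes 61 rose and none fell, at a median log2 change of 0.23 that turns to -0.43 on the spike-in scale. Rps2 was at 176.5, 174.7 and 171.4 CPM in the DMSO libraries and 275.5, 265.8 and 271.9 CPM in the JQ1 libraries (log2 change 0.64, SE 0.0422, adjusted p = 3.98e-08). Many ribosomal protein genes have processed pseudogenes that can share reads. The elongation factors Eef2 (0.53) and Eef1a1 (0.31) moved likewise and were, by CPM, among the largest gains, next to Actb (0.38), App (0.46) and Psap (0.44). The directions of all these flip on the spike-in scale. Among the 10 largest losses by CPM were the tubulin genes Tubb5 (-0.23) and Tubb3 (-0.19), the neuronal microtubule regulator Stmn2 (-0.20) and the desaturase gene Scd2 (-0.23), whose call was lost without JQ1 replicate 1 or 3 (adjusted p = 0.0736 and 0.0631). Tubulin genes are near-identical to each other in places and can share reads. The 75 tested mitochondrial ribosomal protein genes were balanced, with 18 called higher and 19 lower, or 12 lower without JQ1 replicate 1 or 2. None of the 12 tested mitochondrially encoded genes was called, and their log2 changes lay between -0.014 and 0.11. Of the 19 genes often used as references for quantitative PCR, 11 rose and 3 fell on the TMM scale, a balance that flips on the spike-in scale, where the median log2 change is -0.44. Among the falls was Gusb (-0.60), and 1 gene fell without JQ1 replicate 1 or 2.

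Chromatin regulators shifted in both directions. Of 47 tested remodellers and methylation regulators 21 rose and 4 fell, with a median log2 change of 0.17 that turns to -0.48 on the spike-in scale. The polycomb subunits Suz12 (0.60) and Eed (0.51), the methyltransferase Dnmt1 (0.47) and the remodeller Chd1 (0.49) rose. Chd3, a neuronal remodeller of the NuRD complex, was at 582.5, 572.7 and 618.2 CPM in the DMSO libraries and 329.1, 326.5 and 319.3 CPM in the JQ1 libraries (log2 change -0.86, SE 0.0648, adjusted p = 1.23e-07). All JQ1 libraries lay below all DMSO libraries, while its paralog Chd4 was called higher (0.30). Acetyltransferases and deacetylases were balanced, with 9 of 27 called higher and 7 lower; Sirt1 (0.76) and Sin3a (0.60) rose and Hdac11 (-0.47), Hdac7 (-0.59) and Kat2b (-0.45) fell. Of 29 Mediator subunit genes 9 rose (31.0%, against 25.9% of all genes) and 6 fell (20.7%, against 29.3%). Of the directions named here as rises, that of Sirt1 alone holds on the spike-in scale, at 0.11.

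Myc, a gene lowered by JQ1 in many tumour cells, fell slightly and was at 45.1, 42.2 and 43.85 CPM in the DMSO libraries and 36.6, 34.5 and 34.9 CPM in the JQ1 libraries (log2 change -0.31, SE 0.0510, adjusted p = 0.000162). Of 21 tested genes of the Myc network and its targets 9 rose and 1, Myc itself, fell. The targets Odc1 (0.58) and Ncl (0.42) were called higher, with directions that flip on the spike-in scale.

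Neurons without Fmr1 gave the same comparison a second time, in 3 DMSO and 3 JQ1 libraries of their own. The knocked-out gene checked the labels: Fmr1 was at 120.9 ± 2.89 CPM in WT in DMSO, 144.5 ± 9.19 CPM in WT in JQ1, 24.4 ± 4.395 CPM in KO in DMSO and 29.4 ± 4.59 CPM in KO in JQ1 (SD, n = 3 each). In KO, 4279 genes (27.7%) rose and 4538 (29.4%) fell. Of the 3990 genes that rose in WT, 3519 (88.2%) also rose in KO, which is 82.2% of the KO rises. Of the 4517 that fell in WT, 3973 (88.0%) also fell in KO, 87.5% of the KO falls. No gene rose in WT and fell in KO, and 1, the sorting nexin gene Snx7, fell in WT (log2 change -0.32) and rose in KO (0.24). The WT call of Snx7 was lost on thinning (adjusted p = 0.17). Tested directly, the difference between the responses was called for 0 genes by edgeR, with 355 genes (2.3%) at an unadjusted p under 0.05, and for 0 by DESeq2, with 235 at an unadjusted p under 0.05. Fewer genes lay under 0.05 than an exact test would give if no response differed, so the test was conservative. The 0 calls thus do not show that the responses were equal. Every adjusted p of this difference was 1, including that of Snx7, so ranking by it separates no genes and those that tie for the first places are not described. The leading WT changes had KO values close by: Hexim1 1.72 in WT and 1.64 in KO, Akap13 2.21 and 2.25, Hist1h1c 2.16 and 2.16, Aldh1a3 -3.87 and -3.57, Rlbp1 -3.81 and -3.88, and Nalcn -1.92 and -1.87. Scel differed more, at -3.44 in WT and -2.49 in KO, but its difference was not called either.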

How the data were processed

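RNA libraries (TruSeq RNA kit) were read as 75-base single reads on a NextSeq500, per the labels' protocols. Per the submitters' processing notes, reads were handled with TopHat2 2.1.0, SAMtools 0.1.19 and HTSeq 0.6.1 on build mm9, and DESeq2 and DESeq were used. The sources used here give neither strandedness nor counting mode, so overlapping and antisense genes are uncertain. The authors deposited raw read counts per gene. Of 37310 genes, 15433 passed edgeR's filterByExpr (minimum count 10). The 92 ERCC sequences stayed out of library sizes.

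In R 4.3.3, edgeR 4.0.16 was fitted to 12 libraries in 4 groups of 3 with TMM scaling, without a replicate block (biological coefficient of variation 6.69%), and tested with the quasi-likelihood F test and Benjamini-Hochberg adjustment over all tested genes. SE is that of the log2 change. Alternatives were other scalings (DESeq2's size factors, ERCC), DESeq2 1.42.0, other filters, WT libraries alone, thinned counts, a replicate block and leaving out libraries. The fit was tested on simulated data. Counting error did not account for the spread of WT replicates (chi-square over its degrees of freedom, 4.95 to 15.0). The spread of KO replicates was wider, from 7.93 to 41.4 by the same measure. Replicate numbers were not taken to pair the libraries, although same-numbered WT libraries correlated best in 3 of 3.

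Named genes were the 15 rising and 15 falling called genes of largest log2 change whose libraries did not overlap and whose higher mean was 3 CPM or more, the 10 of largest CPM change each way, up to 6 members of smallest adjusted p in a list's main direction and 3 in the other, and BET genes. Not all are printed, and some items are not reported here. Outside this rule, Cdk9, Slc1a2, Slc1a3, Apoe, Fmr1 and Snx7 were named after their values were seen. Members and lists were chosen with earlier results of these data known. Promoters are from RefSeq (GRCm38.p6), matched by gene identifier, and no coordinates were compared with mm9.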

Additional observations from a re-analysis of the deposited data

How the results depend on the processing

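The counts of rising and falling genes stayed within 1.5 times the reported ones, 3990 and 4517, under the DESeq2 test, DESeq2's size factors, both filters on low counts, the fit of the 6 WT libraries alone, thinning to the shallowest library and leaving out replicate 3 of both KO groups, the last chosen after seeing the data. Leaving out 1 WT library in turn gave 3534 to 3846 rises and 3836 to 4462 falls, of which 142 to 168 and 1472 to 1719 passed 2-fold, and 0 to 0 genes with a different response in KO. With spike-in scaling 36 genes rose, 35 of them over 2-fold, and 3612 fell over 2-fold. A minimum count of 50, which leaves fewer weak genes to test, gave 68 rises and 800 falls over 2-fold. Called genes past 1.5-fold numbered 586 higher and 2535 lower, and past 4-fold 25 and 450. Thinning, which lowers every library to the shallowest depth, cut the called falls from 14 to 5 among neuropeptides, 14 to 9 among sodium and calcium channels, 16 to 9 among retinoid genes, 15 to 8 among interferon genes, 13 to 8 among inflammatory genes, 19 to 9 among mitochondrial ribosomal genes, 8 to 5 among excitatory and among microglial genes and 8 to 3 among oligodendrocyte genes. With a minimum count of 50 fewer weak genes were tested, and 13 histone cluster genes rose, while 10 retinoid, 8 neuropeptide, 6 interferon, 3 oligodendrocyte and 2 microglial genes fell. Same-numbered WT libraries had correlations of 0.094, 0.16 and 0.15, each the best for its number in 3 of 3. Libraries of different numbers had correlations from -0.13 to 0.017. The labels do not say that equal numbers mark a pair, so pairing is possible but not established, and the main fit has no block. With a replicate block 4446 genes rose and 4846 fell over 12 libraries, and 4126 and 4561 in WT alone. Of 211 genes named, the called ones with log2 changes that turned negative on the spike-in scale were Actb -0.26, App -0.18, Brd2 -0.019, Brd3 -0.48, Cadm2 -0.011, Ccnd3 -0.077, Cdk13 -0.18, Cdk9 -0.28, Chd1 -0.14, Chd4 -0.34, Chrm4 -0.21, Col4a3bp -0.40, Dnmt1 -0.17, Eed -0.13, Eef1a1 -0.34, Eef2 -0.12, Fmr1 -0.38, Gabbr1 -0.20, Gad2 -0.29, Glrb -0.27, Grin1 -0.29, Hcn2 -0.40, Ina -0.13, Mepce -0.049, Ncl -0.22, Nes -0.025, Neurod1 -0.018, Nsf -0.071, Odc1 -0.061, Paf1 -0.16, Pcna -0.16, Psap -0.21, Rdh10 -0.39, Rps2 -0.011, Rtf1 -0.16, Sin3a -0.039, Suz12 -0.038, Syn1 -0.28, Tyms -0.14 and Unc13b -0.13. Another 18 rising genes kept their direction there without a call. No other alternative turned the direction of a called named gene. Apoe, not called, went to -0.56 on the spike-in scale and to -0.0044 without WT DMSO replicate 1. The limits are the 3 libraries a group, the uneven JQ1 depth, and the unknown amount of spike-in RNA, so the direction of small rises depends on the scaling used.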

Other observations

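Genes of secreted signals and their targets were lowered in JQ1 in WT neurons. Of 37 tested TGF-beta, BMP and Wnt ligands and targets 21 fell, 7 by more than 2-fold, and 5 rose, with a median log2 change of -0.42, against -0.0043 for all genes. The ligand Bmp3 (-1.24), the Wnt antagonist Sfrp2 (-1.16), the signal transducer Smad9 (-1.37) and the ligands Wnt9a (-0.93) and Tgfb3 (-0.77) fell, while the Wnt feedback inhibitor Nkd1 (0.93) rose. Of 39 cadherin, protocadherin and integrin genes 21 fell and 6 rose. The integrin Itga9 (-2.04) and the cadherins Cdh10 (-0.66) and Cdh12 (-0.86) fell, and Cdh18 (0.67) rose. Of 29 tested Notch pathway genes 9 fell (31.0%, against 29.3% of all genes) and 2 rose (6.9%, against 25.9%), with a median log2 change of -0.091. The fringe enzyme Mfng was at 0.5275, 0.658 and 0.743 CPM in the DMSO libraries and 0.0769, 0.0615 and 0 CPM in the JQ1 libraries (log2 change -3.41, SE 0.363, adjusted p = 2.97e-06). Mfng is in the lowest level group, where a gene could enter the test through the libraries in which it was high, so its fall is not read further.

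Of 21 tested p53 targets 9 fell and 1 rose, among the falls Perp (-1.82), Phlda3 (-0.90) and Ccng1 (-0.50), while the median log2 change of the list was 0.0091. Of 28 integrated stress response genes 9 rose and 9 fell (32.1% each way, near the 25.9% and 29.3% of all tested genes). Trib3 (-1.50) and Stc2 (-0.77) fell, calls lost when counts were thinned to the shallowest library (adjusted p = 0.0737 and 0.0605), and Sesn2 (0.67) rose. Of 26 heat shock and chaperone genes 11 rose and 5 fell, and the small heat shock genes Cryab and Hspb8 (-2.18) fell steeply. Of 21 circadian genes 6 rose and 5 fell, with Hlf (0.67) among the rises and Npas2 (-1.04) and Bhlhe41 (-0.90) among the falls. The proteasome list had 10 rises and 5 falls in 37 genes, and 2 of the falls, Psmb8 (-1.75) and Psmb10 (-0.85), were subunits of the immunoproteasome.

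By gene class, 8 of 48 tested small nucleolar RNA genes were called higher (16.7%, against 25.9% of all tested genes) and none lower, with a median log2 change of 0.59 over the 48. Of 553 tested lincRNA genes 82 were called higher (14.8%) and 121 lower (21.9%), both below the shares over all tested genes (25.9% and 29.3%). Small nucleolar RNAs are shorter than most library fragments and lie in introns of other genes, so their counts are uncertain.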
